A study of Sus scrofa with 22 samples.

Results

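The genes described here build the motile cilium and carry cargo along it. They were chosen by symbol: every gene of the count tables whose NCBI symbol begins with DNAH, DNAI, DNAL, DNAAF, CFAP, RSPH, TEKT, SPAG, IFT or DRC followed by a number (DNALI1 included), together with 14 further symbols such as HYDIN, ARMC4, CCDC39 and ZMYND10. The pig annotation holds 100 such symbols, and 83 of them stood in at least 1 table, out of 12401 genes in all. The data came from endometrium of gilts on Day 12, from which laser capture microdissection took the epithelium of the lumen (LE), that of the glands (GE) and areas of stroma (S), a mixture that includes immune cells, for separate RNA sequencing. The gilts were prepuberal crosses of German Landrace and Piétrain, all brought into a synchronized cycle with PMSG and hCG. The pregnant gilts (01, 03, 05 and 14) had been inseminated with semen and carried filamentous conceptuses, and the cyclic control gilts (02, 04, 06 and 13) had received the supernatant of semen. Each of the 8 gilts gave an LE and a GE library, and 6 of them (control 02, 04 and 13, pregnant 01, 05 and 14) also gave an S library, so the design allowed the pregnant and control gilts to be compared within each cell type and the cell types to be compared within gilts.

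A motile cilium beats through dynein motors: outer and inner dynein arms sit on the microtubule doublets of the axoneme, are loaded onto it after assembly in the cytoplasm, and are held in check by radial spokes, the nexin-dynein regulatory complex and the central apparatus. Intraflagellar transport (IFT) moves building blocks along the doublets in 2 particle complexes, IFT-B towards the tip and IFT-A back to the base, and serves primary, non-motile cilia as well. In the uterus, cells with many motile cilia occur among the secretory cells of the luminal and glandular epithelium. FOXJ1 is the transcription factor best known for switching on motile cilium genes, RFX factors bind the X-box in many cilium promoters, and GMNC and MCIDAS act at the start of the multiciliated programme.

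The tables themselves differed in which of these genes they held. There were 82 members in GE, 63 in S and 46 in LE, and 45 stood in all 3 tables. Of the 82 GE members 36 (43.9%) were not in the LE table, against 825 of 11676 genes (7.07%) for the whole GE table. In the other direction none of the 46 LE members was missing from the GE table, against 564 of 11415 genes (4.94%). A gene is listed because it passed the authors' cutoff on CPM, the counts of a gene scaled to the size of its library. With CPM taken from the library totals alone, each listed gene reached at least 7.07 CPM in 3 LE libraries, 6.91 in 3 GE libraries or 7.93 in 2 S libraries. The CPM values of single genes given below are scaled between libraries as well. All 11 IFT-B genes with a fitting symbol were listed in all 3 tables, whereas only 1 of 5 listed radial spoke genes (CFAP61) and 3 of 9 listed tektins and doublet inner proteins were in LE. Not listed anywhere were 17 symbols: DNAH8, DNAH14, DNAH17, RSPH6A, RSPH9, TEKT3, TEKT5, SPAG4, SPAG11, SPAG11B, CFAP73, CFAP77, CFAP206, IFT43, CCDC103, PIFO and MCIDAS.

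The libraries held 893912 (pregnant LE gilt 01) to 4020796 counts, and the members together took 0.155% to 0.520% of the counts of a GE library, 0.186% to 0.381% in S and 0.175% to 0.233% in LE. These shares cover the 82 members listed in GE, the 63 in S and the 46 in LE. In LE the single gene SPAG1 stood at 698 to 1315 CPM, and its level in GE was lower, as given below. A level of 3 counts corresponded to 0.703 to 3.61 CPM, so the lower members rested on few reads in the shallowest library. The marker genes bore on the labels, and this touches all results below. In 5 of the 6 libraries labelled S the 8 fibroblast markers listed in all tables summed to 4709 to 12106 CPM, which was within or below the LE range (7756 to 20635 CPM), and the 10 epithelial markers summed to 2535 to 4438 CPM (LE 3139 to 4629 CPM). Of the S libraries only that of gilt 01 had a high fibroblast sum, at 59664 CPM, with epithelial markers at 1261 CPM. The libraries labelled S are therefore named by their label without taking them for stroma. Among the GE libraries that of control gilt 02 stood apart, with the lowest epithelial sum (845 CPM against 1988 to 3513 CPM in the other GE libraries) and the highest fibroblast (46221 CPM) and smooth muscle sums (7640 CPM). In LE the library of pregnant gilt 01 had the highest smooth muscle (5126 CPM against 125 to 642 CPM in the others), fibroblast (20635 CPM) and endothelial sums (1513 CPM). The gland factor FOXA2 was listed in GE (16.6 to 109 CPM) and S (11.3 to 133 CPM) and not in LE, whereas SOX17, the gland marker listed in all tables, was at 293 to 583 CPM in LE, 140 to 384 CPM in GE and 135 to 417 CPM in S. Of the 15 markers of ciliated cells, 10 of which are themselves members, 12 were listed in GE, 6 in S and 3 in LE.

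**Figure D1:**
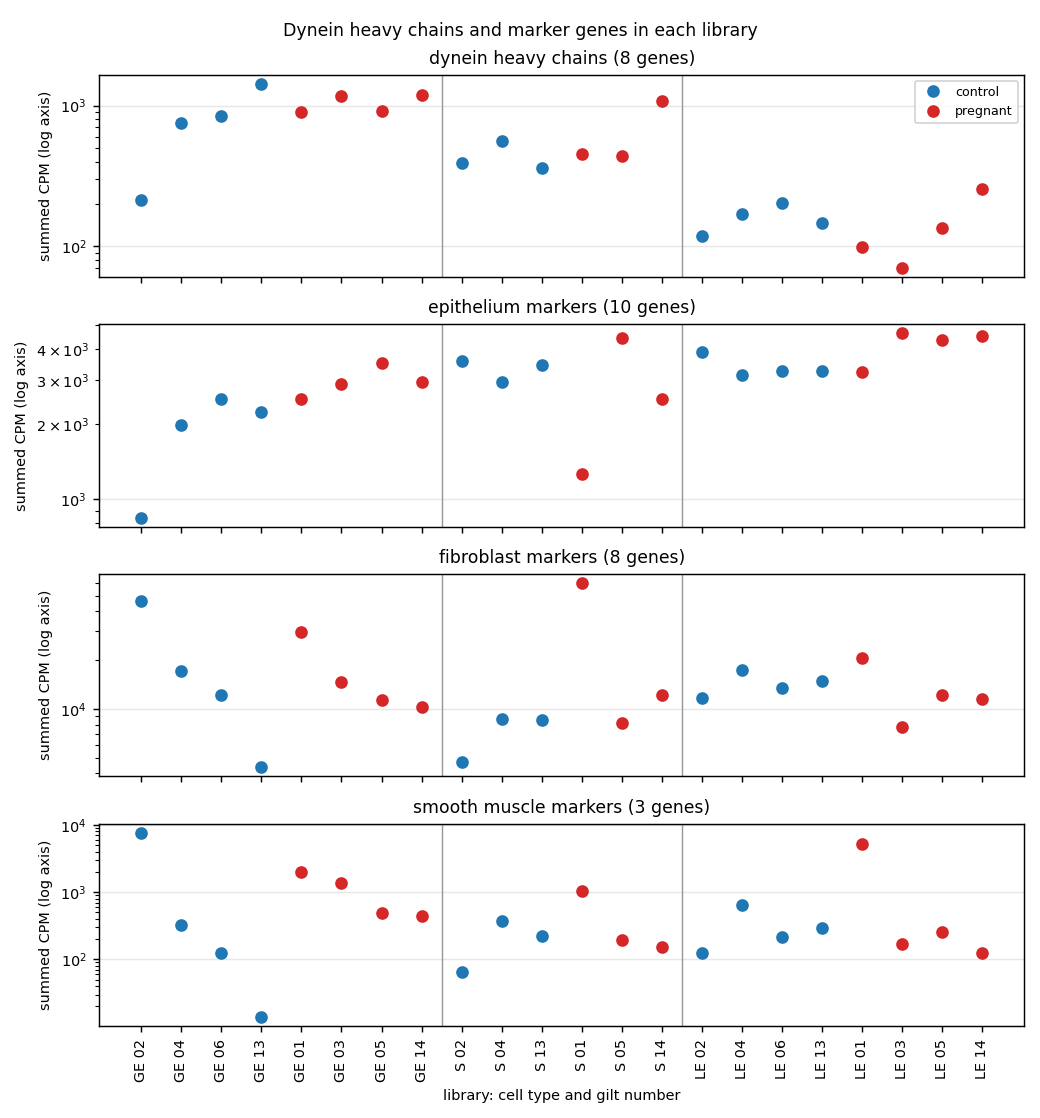
Summed CPM (log axis) of the 8 dynein heavy chains listed in all tables and of the epithelial, fibroblast and smooth muscle markers listed in all tables, 1 point for each of the 22 libraries, ordered by cell type and group. GE of gilt 02 has the fewest dynein heavy chain counts of the GE libraries (212 CPM) together with the most fibroblast marker counts (46221 CPM), and LE libraries lie at 70.1 to 253 CPM for the dyneins.

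The axonemal genes were higher in GE than in LE in these libraries. The 8 dynein heavy chains were higher by 3.61- to 14.7-fold, and the IFT genes that were called by 1.74- to 2.87-fold. Over all 13 IFT genes the log2 difference ran from 0.10 to 1.52. Of the 46 members in both tables, 27 (58.7%) were higher in GE and 1 was higher in LE (edgeR quasi-likelihood test with the gilt as a block, FDR below 0.01), where 15.2% of all 10851 genes were called, made up of 8.29% higher in GE and 6.87% higher in LE. The median log2 difference of the members was 1.11, against -0.00 for all genes, and 42 of the 46 lay above 0. In 23 of the 46 members GE exceeded LE in each of the 8 gilts, which held for 8.80% of all genes. Leaving out 1 gilt gave 21 to 31 called members, and 31 without gilt 02, the GE library with high stromal markers. In these bulk samples fewer ciliated cells and less RNA per cell cannot be told apart.

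Among the dynein arm subunits 9 of 10 were called, all higher in GE. DNAH5, a heavy chain of the outer arm, had 28.0, 176 and 230 CPM as its lowest, median and highest values over the 8 GE libraries, and 0, 11.5 and 43.4 CPM in LE. The lowest GE value came from gilt 02 and the highest LE value from pregnant gilt 14, and without either of them the ranges of GE and LE did not overlap. The difference was 3.87 ± 0.51 on the log2 scale (SE, n = 8 gilts, FDR = 0.000997, edgeR), or 14.7-fold. DNAH12, an inner arm heavy chain, did not overlap at all, with 37.7, 129 and 212 CPM in GE against 6.90, 12.97 and 26.6 CPM in LE (log2 difference 3.18 ± 0.28, edgeR FDR = 0.000458). DNAH3, DNAH6, DNAH9, DNAH10 and DNAH11, further heavy chains, had medians of 75.7 to 114 CPM in GE and of 11.04 to 22.9 CPM in LE and differed by 2.49 to 2.69 on the log2 scale. DNAH7 had 29.2, 125 and 221 CPM in GE against 15.8, 34.2 and 65.2 CPM in LE, a difference of 1.85 ± 0.25. Exons of DNAH7 overlap SLC39A10 on the opposite strand over 15.4% of their length, and whether counting used strand is not given in the sources used here. DNAL1, a light chain, differed by 0.82 ± 0.15, and DNAL4, whose protein is also used by cytoplasmic dynein, did not pass (0.76 ± 0.23, edgeR FDR = 0.0326). The light chains thus lay below each of the heavy chains in the size of the difference.

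The central apparatus genes showed differences of like size, with 6 of 7 called. HYDIN, a scaffold of the central pair projections, ranged from 62.9 (gilt 02) over a median of 285 to 519 CPM (gilt 13) in GE and from 1.59 over 17.2 to 56.5 CPM in LE. No LE library reached the lowest GE library, and the log2 difference was 3.75 ± 0.58 (edgeR FDR = 0.00171). CFAP47 had 8.92, 61.5 and 149 CPM in GE against 0, 3.17 and 16.2 CPM in LE, a log2 difference of 3.71 ± 0.60. CFAP54 had 54.7, 127 and 182 CPM in GE and 3.72, 12.1 and 23.8 CPM in LE, with no overlap (3.44 ± 0.37, edgeR FDR = 0.000624). SPAG16, with 14.2, 60.8 and 101 CPM in GE and 0, 10.8 and 17.1 CPM in LE, CFAP46 and CFAP70 followed with differences of 2.75 ± 0.44, 2.29 ± 0.28 and 1.86 ± 0.24. CFAP69, the other listed central apparatus gene, differed by 0.36 ± 0.35 (edgeR FDR = 0.463), with overlapping ranges of 6.49 to 60.5 CPM in GE and 9.88 to 69.4 CPM in LE.

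**Figure D2:**
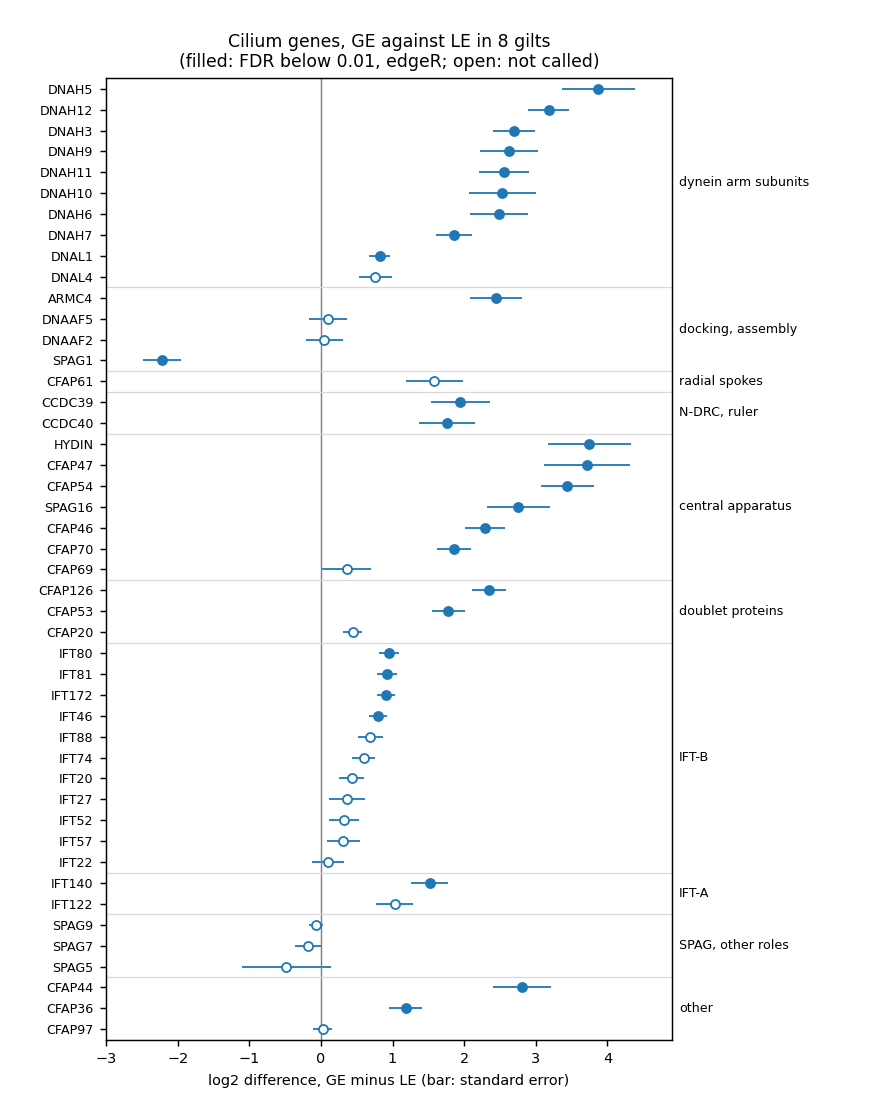
Log2 difference between GE and LE (x axis, GE minus LE, bars are standard errors of the edgeR fit over 8 gilts) for the 46 members in both tables, grouped by role; filled points passed FDR below 0.01. DNAH5, HYDIN and CFAP47 lie furthest to the right, at 3.71 to 3.87, IFT genes between 0.10 and 1.52, and SPAG1 alone is filled on the left, at -2.22.

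Most listed genes of the other axonemal parts were higher in GE too. ARMC4, which docks the outer arm, had 16.6, 75.3 and 115 CPM in GE and 1.20, 18.4 and 26.1 CPM in LE and was 2.45 ± 0.37 higher in GE on the log2 scale. CFAP126 and CFAP53, of the doublets and their basal region, differed by 2.35 ± 0.24 and 1.78 ± 0.23, but 94.5% of the exon bases of CFAP53 lie within MBD1 on the same strand, so that its counts cannot be told from those of MBD1. The ruler genes CCDC39 and CCDC40, which set the spacing along the doublet, were 1.95 ± 0.42 and 1.76 ± 0.39 higher in GE, and 45.9% of the exon bases of CCDC39 are shared with TTC14 on the opposite strand. CFAP44 (2.80 ± 0.40) and CFAP36 (1.18 ± 0.23) were called too, CFAP44 with 21.0% of its exon bases under BOC on the opposite strand. CFAP61, of the radial spokes, differed by 1.59 ± 0.40 without passing (edgeR FDR = 0.0151), as did CFAP20 of the doublet (0.44 ± 0.13, edgeR FDR = 0.0281). The assembly factors DNAAF2 and DNAAF5 (0.05 ± 0.25 and 0.10 ± 0.26) and CFAP97 (0.02 ± 0.14) had differences within about 1 standard error of 0. Of the exon bases of DNAAF2, 28.8% are shared with another gene on the opposite strand. SPAG5, SPAG7 and SPAG9, whose proteins act on the spindle, in the cytosol and as a kinase scaffold, gave -0.48 ± 0.62, -0.18 ± 0.19 and -0.07 ± 0.10 and were not called.

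All 13 IFT genes had a higher fitted value in GE, by less than each of the 8 dynein heavy chains, and 5 were called. IFT80, IFT81, IFT172 and IFT46, of the IFT-B particle, were 0.96 ± 0.14, 0.92 ± 0.14, 0.91 ± 0.12 and 0.80 ± 0.13 higher on the log2 scale (edgeR FDR = 0.00138, 0.00163, 0.00108 and 0.00218). IFT172, for instance, had 37.99, 41.9 and 75.3 CPM as its lowest, median and highest values in GE and 14.5, 26.2 and 37.4 CPM in LE, with no overlap. IFT140, of the IFT-A particle, was 1.52 ± 0.26 higher, and its partner IFT122 1.03 ± 0.26 (edgeR FDR = 0.0146, not called). The remaining 7 IFT-B genes, IFT20, IFT22, IFT27, IFT52, IFT57, IFT74 and IFT88, ranged from 0.10 to 0.69 without passing. IFT20 has 27.7% of its exon bases under TMEM97 on the opposite strand. Of the 28 called members 20 stayed called in every fit that left out 1 gilt, and CCDC39 and CCDC40 stayed called in 1 of the 8 fits. DNAL1 and CFAP36 stayed called in 3 fits, DNAH10 in 4, and CFAP47 (lost without gilt 04), IFT140 (lost without gilt 05) and IFT46 (lost without gilt 04) in 7.

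Promoters of a few members are shown because they held the X-box, the site of RFX factors and one known shared element of cilium promoters. Its part in the differences between the cell types was not tested. The windows are the 250 bases before the annotated gene start in the Sscrofa11.1 genome, 5′ to 3′ in the direction of the gene, taken from the RefSeq assembly. Capitals mark the X-box, searched on both strands as GTTNCCNGGNAAC, GTTNCCNNGGNAAC or GTTNCCNNNGGNAAC, and the half-site GTTGCC, which can overlap it. CFAP54 was 10.9-fold higher in GE. SPAG17 and CFAP45 were listed in GE and S and not in LE, so that no test between GE and LE covered them.
CFAP54 (chr5:87102622-87102871, minus strand): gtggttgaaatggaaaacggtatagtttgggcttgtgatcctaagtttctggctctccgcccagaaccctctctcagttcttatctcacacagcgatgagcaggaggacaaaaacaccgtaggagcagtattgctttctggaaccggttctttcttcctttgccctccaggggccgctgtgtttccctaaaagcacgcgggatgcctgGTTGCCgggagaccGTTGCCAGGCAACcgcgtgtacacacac
SPAG17 (chr4:102596215-102596464, plus strand): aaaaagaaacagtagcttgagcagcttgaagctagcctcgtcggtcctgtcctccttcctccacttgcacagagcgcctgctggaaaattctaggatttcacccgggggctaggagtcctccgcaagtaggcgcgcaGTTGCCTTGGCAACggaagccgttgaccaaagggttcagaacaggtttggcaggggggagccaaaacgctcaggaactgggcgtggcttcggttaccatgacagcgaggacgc
CFAP45 (chr4:90593614-90593863, plus strand): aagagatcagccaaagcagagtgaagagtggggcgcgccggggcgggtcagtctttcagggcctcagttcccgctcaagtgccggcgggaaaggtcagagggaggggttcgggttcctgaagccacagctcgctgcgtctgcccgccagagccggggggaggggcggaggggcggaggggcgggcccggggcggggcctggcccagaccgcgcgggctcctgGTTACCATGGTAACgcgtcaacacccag

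An X-box stood in the windows of these 3 of 83 members (3.61%), against 63 of 12397 listed genes with a full window (0.508%). The half-site, counted within an X-box as well as apart from it, stood in 17 members (20.5%) and in 10.9% of all windows. Outside the repeats masked in the assembly it stood in 15 members (18.1%) and 8.79% of all windows. None of the 13 IFT windows held either. Among the 27 members higher in GE an X-box stood in 1 (3.7%), CFAP54, and the half-site outside repeats in 4 (14.8%). The forkhead letters TGTTTAC stood in 2 members (2.41%) and in 2.20% of all windows. The window of SPAG1 held neither motif, with 88.8% of it masked repeat, and the windows of HYDIN and DNAH5 are masked repeat over their whole length and are not shown.

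SPAG1 ran against the other members. Its protein helps to assemble dynein arms before they enter the cilium, and the gene lies at chr4:36746798-36844662 on the minus strand of Sscrofa11.1. Its level was 698 to 1315 CPM with a median of 1013 CPM in LE and 90.04 to 545 CPM with a median of 192 CPM in GE, with no overlap and LE above GE in each of the 8 gilts. The log2 difference was -2.22 ± 0.26 (edgeR FDR = 0.000758), so that LE was 4.66-fold higher. In the libraries labelled S it had 840, 594 and 815 CPM in control gilts 02, 04 and 13 and 119, 813 and 190 CPM in pregnant gilts 01, 05 and 14. Of these 6 values 3 lay within the LE range, 1 between the LE and GE ranges, and those of gilts 01 and 14 within the GE range. The 10 epithelial markers summed to 3593, 2946 and 3467 CPM in the same control S libraries and to 1261, 4438 and 2535 CPM in the pregnant ones, so that gilts 01 and 14 were lowest for both, and the part of epithelial content in these SPAG1 values was not tested.

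**Figure D3:**
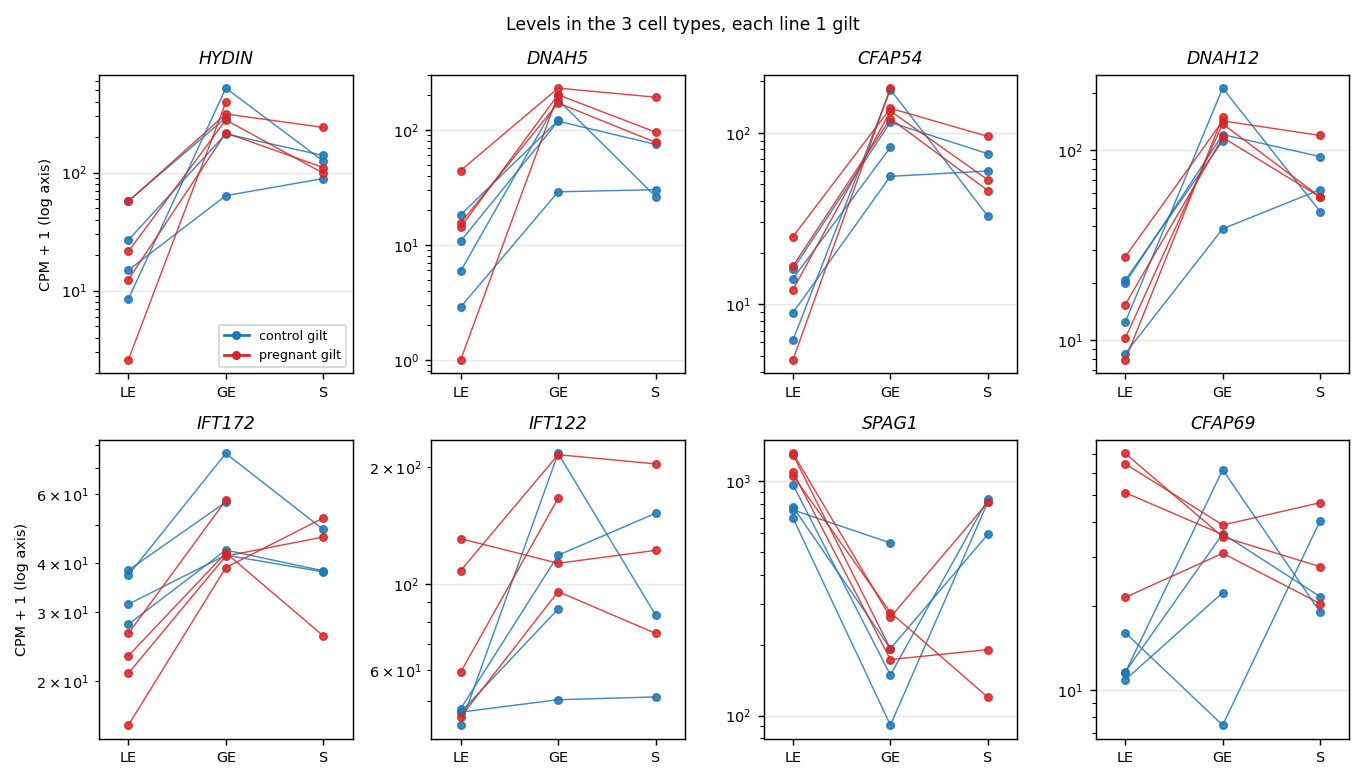
CPM + 1 (log axis) of 8 members in LE, GE and S, with 1 line for each gilt, blue for control and red for pregnant; gilts 03 and 06 have no S library. HYDIN, DNAH5, CFAP54 and DNAH12 rise from LE to GE in all 8 gilts, SPAG1 falls from LE to GE in all 8, and CFAP69 is higher in LE of the pregnant gilts.

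By their means, most members lay between GE and LE in the libraries labelled S. For 35 of the 45 members in all 3 tables the mean over the 6 shared gilts fell in the order GE, S, LE. Single gilts followed this order less evenly: all 6 did for IFT80, 5 for HYDIN and 1 for CFAP61. The share of all genes with this order is not given here. Against LE, 13 of 45 members (28.9%) were higher in S and none was higher in LE (edgeR with the gilt as a block, FDR below 0.01), where 1.33% of all 10890 genes were called, made up of 1.16% higher in S and 0.174% higher in LE. Of the 13, 7 were dynein heavy chains: DNAH3, DNAH5, DNAH6, DNAH7, DNAH10, DNAH11 and DNAH12. Another 4 belonged to the central apparatus (HYDIN, CFAP47, CFAP54 and SPAG16), and the others were ARMC4 and CFAP44. CFAP47 had 20.8 to 107 CPM in S and 0 to 16.2 CPM in LE (log2 difference, LE minus S, -3.07 ± 0.30, edgeR FDR = 0.00269). HYDIN had 88.1 to 241 CPM in S and 7.496 to 56.1 CPM in LE of the same gilts (-2.77 ± 0.25, edgeR FDR = 0.00248). DNAH5 gave -2.67 ± 0.20, and its ranges of 25.4 to 192 CPM in S and 1.88 to 43.4 CPM in LE overlapped. No IFT gene was called, although S exceeded LE in the fitted value of all 13. SPAG1, SPAG7 and DNAAF2 had the largest differences towards LE, at 1.12 ± 0.30, 0.30 ± 0.21 and 0.28 ± 0.27, none of them called.

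The count between LE and S rested on the design. It was 3 without gilt 02, 5 without gilt 04, 4 without gilt 13 and 13 without gilt 01, whose S library held the fibroblast markers. Without gilts 01 and 02 together it was 0 of 45, with 0 genes called in the whole table and the median of the members at -0.83 (-0.73 with all 6 gilts), and without the gilt as a block it was 0 of 45 as well. At an FDR below 0.05 it was 21 of 45, where 9.32% of all genes passed. Of these members 20 were higher in S (44.4%, against 4.67% of all genes). The other, SPAG1, was higher in LE (2.22% against 4.65%). Only DNAH5, DNAH12 and CFAP54 stayed called whichever single gilt was left out. Beside the dynein heavy chains, which summed to 392, 559 and 358 CPM in S of control gilts 02, 04 and 13 and to 452, 441 and 1074 CPM in S of pregnant gilts 01, 05 and 14, FOXA2 stood at 11.3, 63.0 and 12.1 CPM and at 24.8, 47.9 and 133 CPM in the same order. SOX17, the other gland marker, stood at 284, 332 and 396 CPM and at 135, 417 and 348 CPM. Gilt 14 was highest for the dyneins and FOXA2 and gilt 05 for SOX17, and the part of gland cells in the libraries labelled S was not tested.

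Between GE and S no member passed (0 of 62, edgeR FDR below 0.01, and 0 by DESeq2). The background was 0 of 11124 genes (0%), or 136 genes by DESeq2. At an unadjusted p below 0.05 in edgeR there were 12 members, where 12.1% of all genes were. Of these, 11 were higher in GE (17.7% of the 62, against 5.42% of all genes) and 1 higher in S (1.61% against 6.72%). The median log2 difference of the members was 0.49 against -0.00 for all genes, and 54 of 62 had a higher fitted value in GE. The largest differences were those of ZMYND10, a dynein assembly factor (1.07 ± 0.39, edgeR FDR = 0.348), RSPH4A, of the spoke head (1.07 ± 0.34, FDR = 0.311 in the same edgeR fit), and CFAP54 (1.02 ± 0.32, FDR = 0.307 likewise). RSPH4A was higher in GE in 6 of 6 gilts, with 8.52, 47.9 and 101 CPM as the lowest, median and highest GE values and 7.80, 16.5 and 43.5 CPM in S. GE exceeded S in every gilt in 2 of 62 members (3.23%), a share like that of all genes (3.26%). SPAG1 (-1.33 ± 0.38), IFT57 (-0.40 ± 0.23) and CFAP97 (-0.25 ± 0.23) leaned furthest the other way. Without gilt 02 the median of the members rose to 0.75, and without gilt 13 it was 0.23.

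A set of 19 members was listed in GE alone: the intermediate chains DNAI1 and DNAI2, the assembly and docking genes DNAAF1 and CCDC151, the radial spoke genes RSPH1, RSPH3 and RSPH14, the nexin-dynein regulatory complex genes DRC1 and DRC3, CFAP221 of the central apparatus, the doublet genes TEKT1, TEKT2, CFAP52 and SPAG8, CCDC78, which takes part in centriole amplification, and CAPS, CCDC17, CCDC153 and CFAP157. Their summed level was 48.7 CPM in gilt 02, 310 CPM in gilt 13 and 175 CPM at the median of the 8 GE libraries. Single medians were low, from 5.80 CPM for RSPH1 to 13.6 CPM for DRC3, and DNAI2 had 0 CPM in gilt 02 and 25.7 CPM in gilt 13. Exons of CCDC78, CAPS, SPAG8 and DRC3 overlap other genes on the opposite strand, over 40.6%, 26.2%, 14.7% and 12.2% of their bases. Another 17 members were listed in GE and S and not in LE, among them DNAH1, DNAH2, DNALI1, ZMYND10, RSPH4A, SPAG6 and SPAG17. CFAP99 was the only member listed in S alone (0.335 to 8.79 CPM), and SPAG5 the only one in LE and GE alone.

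**Figure D4:**
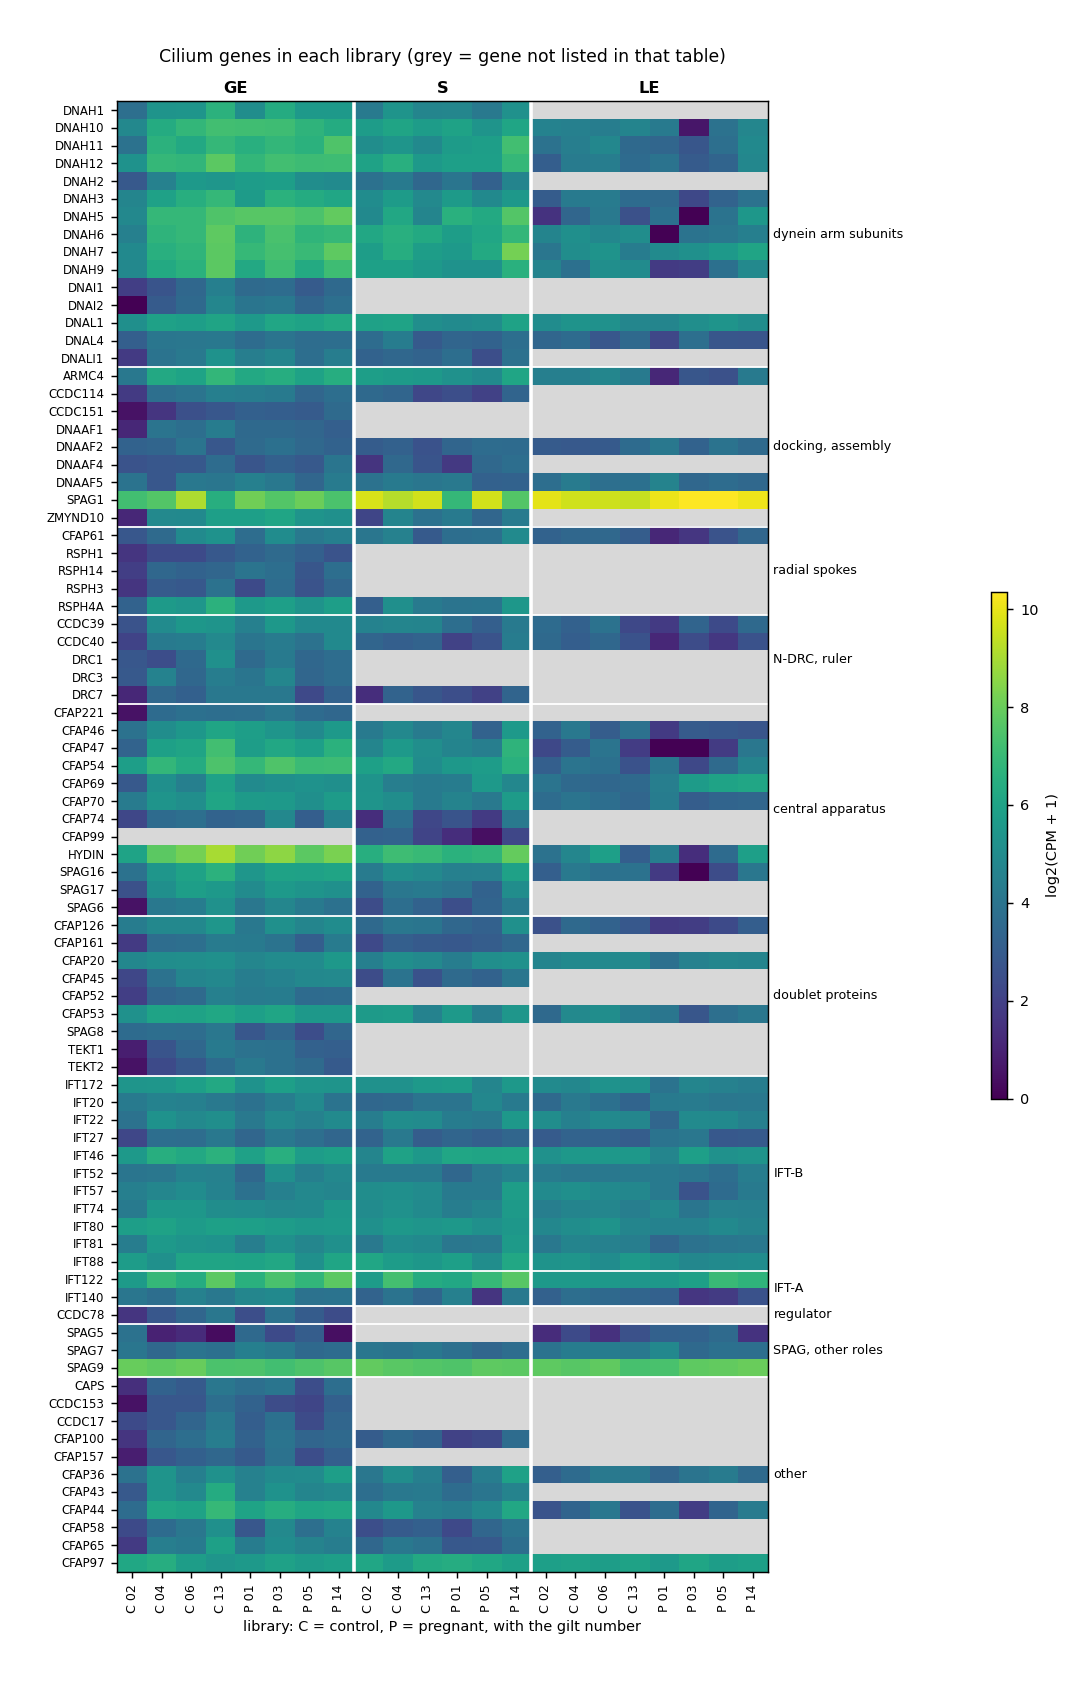
Level of the 83 listed members as log2(CPM + 1) in the 22 libraries (columns: GE, S and LE, control before pregnant gilts), rows grouped by role, grey where the gene is not in that table. The GE block is brightest for dynein heavy chains and HYDIN apart from its first column, gilt 02, and the SPAG1 row is brightest in LE. The IFT rows differ less between GE and LE than the dynein heavy chain rows do. Summed, the IFT genes had 373 to 716 CPM in GE and 267 to 365 CPM in LE.

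Set per kilobase of exon, so that genes can be compared, SPAG1 had the highest mean of the members in each cell type, at 219 ± 52.8 CPM per kb in LE (SD, n = 8), 51.5 ± 30.4 in GE (n = 8) and 123 ± 72.2 in S (n = 6). SPAG9 and IFT46 followed in LE, at 27.4 ± 4.01 and 23.0 ± 5.05 CPM per kb. In GE the next were IFT46 (40.2 ± 11.13) and IFT122 (32.8 ± 15.1), and in S IFT46 (31.0 ± 9.59) and IFT122 (28.2 ± 14.1). In GE the means of SPAG1 and IFT46 differed by less than the spread of SPAG1, whose mean was raised by gilt 06. Within the IFT46 and IFT122 pairs of GE and S the means differed by less than the spread between libraries. HYDIN, whose transcript is long, came to 1.496 CPM per kb in LE, 17.7 in GE and 8.25 in S.

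The dynein heavy chains varied together among the GE libraries. The 8 heavy chains listed in all tables summed to 212 CPM in gilt 02, to 756 to 1187 CPM in 6 further gilts and to 1429 CPM in gilt 13. Gilt 13, with the highest sum, had the lowest fibroblast (4359 CPM) and smooth muscle marker sums (13.96 CPM) of the GE libraries, and gilt 02 the highest. The median pairwise correlation of the heavy chains over the 8 GE libraries was 0.91 (lowest 0.77, on log2(CPM + 1)), against 0.06 between the heavy chains and all listed genes, and these libraries share their depth and their content of other cells. It was 0.65 over the 6 S libraries and 0.56 over the 8 LE libraries. The IFT genes were less uniform, with a median correlation of 0.24 among themselves in GE and 0.48 with the heavy chains. FOXJ1, listed in GE and S, followed the same ends in GE, with 8.52 CPM in gilt 02, 106 CPM in gilt 13 and 28.7 to 66.0 CPM in the other 6, and had 7.41 to 27.9 CPM in S.

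In LE, 1 of the 46 members (2.17%) differed between pregnant and control gilts (edgeR, FDR below 0.01), where 10.0% of all 11415 genes were called, 6.33% higher and 3.71% lower in pregnant gilts. That member was CFAP69 (chr9:70373422-70430383, plus strand, Sscrofa11.1), of the central apparatus. Its LE values were 15.04, 10.6, 9.88 and 10.54 CPM in control gilts 02, 04, 06 and 13 and 20.5, 49.9, 63.6 and 69.4 CPM in pregnant gilts 01, 03, 05 and 14. The groups did not overlap, and gilt 01, the shallowest library and the one that stood apart by its markers, was the lowest of the pregnant ones. The log2 fold change was 2.17 ± 0.34 (edgeR FDR = 0.00172); it stayed called in each fit without 1 gilt (1.998 to 2.41), while with only the 6 gilts that have an S library it was 2.13 at an edgeR FDR of 0.0184. In GE the gene had 30.9 ± 23.0 CPM in control and 34.3 ± 3.35 CPM in pregnant gilts (SD, n = 4 each), and in S 26.0 ± 11.7 and 30.6 ± 13.7 CPM (n = 3 each).

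At an FDR below 0.05 the LE count was 3 of 46, where 22.4% of all genes passed. The other members did not pass 0.01, and 33 of 46 had a lower fitted value in pregnant gilts, with a median log2 fold change of -0.22 (0.01 for all genes). IFT57, which links IFT-B to its motor, had 29.7, 34.8, 29.3 and 27.2 CPM in control gilts and 18.1, 5.31, 11.4 and 18.4 CPM in pregnant gilts, without overlap (-1.21 ± 0.33, edgeR FDR = 0.0266). SPAG1 had 968, 777, 755 and 698 CPM in control and 1058, 1301, 1315 and 1095 CPM in pregnant gilts, again without overlap (0.57 ± 0.17, edgeR FDR = 0.0389). ARMC4 had 21.4, 21.2, 26.1 and 18.5 CPM in control and 1.20, 5.84, 4.94 and 18.4 CPM in pregnant gilts, so that gilt 14 was close to the control range. ARMC4 (-1.37 ± 0.50), IFT140 (-1.31 ± 0.43) and CCDC40 (-1.26 ± 0.44) had the largest negative changes, at an edgeR FDR of 0.0754, 0.0502 and 0.0644, and without gilt 14 ARMC4 was called too, at -2.28 (edgeR FDR = 0.00198). SPAG5 (1.19 ± 0.58) and DNAH5 (1.12 ± 0.89) had the largest positive ones after CFAP69, DNAH5 with 137 of its counts in gilt 14 and none in gilt 03. The groups did not overlap in 9 of 46 members (19.6%), against 26.7% of all genes.

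In GE no member was called (0 of 82 by edgeR at an unadjusted p below 0.0021, 2 below 0.05, and 0 by DESeq2), where 0.694% of all 11676 genes were called, 0.574% higher and 0.120% lower in pregnant gilts, and 8.09% lay below 0.05. The 2 were RSPH1, a spoke head gene, with 2.03, 3.97, 3.98 and 6.29 CPM in control and 8.61, 10.9, 7.95 and 5.31 CPM in pregnant gilts (log2 fold change 0.99 ± 0.41, edgeR FDR = 0.590), and SPAG8, with 11.4, 12.4, 11.9 and 16.1 CPM against 6.08, 10.0, 4.42 and 9.57 CPM (-0.78 ± 0.33, edgeR FDR = 0.598). Both rested on 5 to 59 counts a library. CCDC151, which docks the outer arm, had 0.405, 1.99, 4.84 and 6.02 CPM in control and 8.11, 7.503, 6.77 and 10.98 CPM in pregnant gilts without overlap, on 1 to 31 counts a library. The groups did not overlap in 2 of 82 members (2.44%), CCDC151 and SPAG8, against 4.97% of all genes. CCDC151 (1.27 ± 0.60) and TEKT2 (1.10 ± 0.67) had the largest positive values and CFAP43 (-0.45 ± 0.58) and SPAG9 (-0.33 ± 0.19), after SPAG8, the largest negative ones. The sign of the group as a whole hung on single libraries: the median log2 fold change was 0.13 over 82 members (-0.02 for all genes), -0.16 without gilt 02, -0.10 without gilts 01 and 02, and 0.58 without gilt 13.

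In S no member was called (0 of 63 by edgeR at an unadjusted p below 0.0021, 3 below 0.05, and 0 by DESeq2), where 1.47% of all 11532 genes were called, 0.425% higher and 1.05% lower in pregnant gilts, and 12.5% lay below 0.05. DNAH5 had 29.2, 73.9 and 25.4 CPM in control and 94.7, 77.0 and 192 CPM in pregnant gilts (1.54 ± 0.51, edgeR FDR = 0.296), and DNAH11, another outer arm heavy chain, 32.8, 40.9 and 29.4 against 50.5, 54.9 and 150 CPM (1.35 ± 0.45, edgeR FDR = 0.296). Neither overlapped between the groups, which held for 6 of 63 members (9.52%) and 17.4% of all genes, and gilt 14 was highest in both. DNAH7 followed with 1.14 ± 0.64 and had 53.4, 86.7 and 53.7 CPM in control and 48.1, 77.0 and 292 CPM in pregnant gilts, gilt 14 again being highest. CFAP99 (-1.77 ± 0.83), SPAG1 (-0.98 ± 0.68) and CCDC39 (-0.89 ± 0.38) had the most negative values, none of them called. Without gilt 05 SPAG1 was called, at -2.25 (edgeR FDR = 0.0737). The median over the members was 0.17 (0.08 for all genes) and -0.27 without gilt 14.

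**Figure D5:**
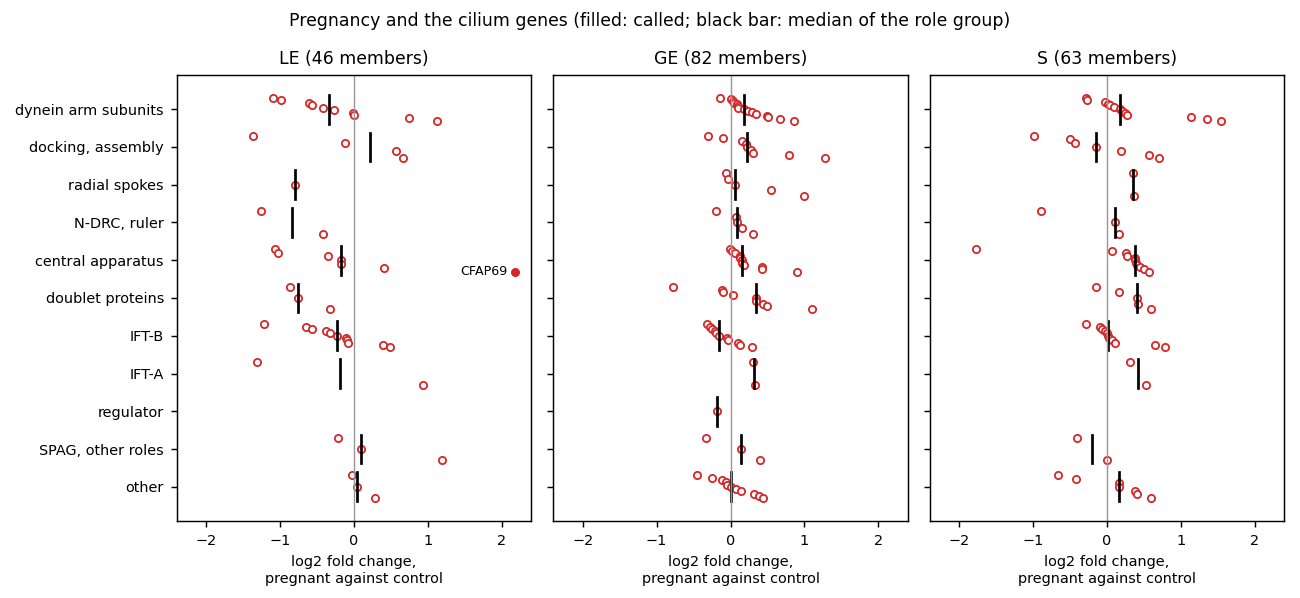
Log2 fold change between pregnant and control gilts (x axis) of the members in LE, GE and S, 1 point for each member, grouped by role, with the black bar at the median of each group; the filled point passed the threshold of its cell type. CFAP69 in LE, at 2.17, is the one filled point.

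The pregnancy effect was also compared between cell types by an interaction term. No member differed between LE and GE (0 of 46, edgeR FDR below 0.01; 5 at an unadjusted p below 0.05, where 15.6% of all genes were, and 0 by DESeq2) or between LE and S (0 of 45; 7 at an unadjusted p below 0.05, where 13.3% of all genes were, and 0 by DESeq2), where 0 of 10851 and 0 of 10890 genes (0%) were called, against 331 and 89 genes by DESeq2. CFAP69 had an interaction of 1.64 ± 0.70 on the log2 scale between LE and GE (edgeR FDR = 0.296) and of 1.75 ± 0.41 between LE and S (edgeR FDR = 0.212). The larger change of CFAP69 in LE than in the other cell types was thus not shown by this test.

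Other cilium genes, taken from lists of known function and not from the symbols, were counted in the same fits, where 8.29% of all genes were higher in GE than in LE and 6.87% lower, and 1.16% were higher in S than in LE. Among 20 other motile axoneme genes found in LE and GE, 13 were higher in GE than in LE and none was lower, among them LRRIQ1 (2.53 ± 0.25) and WDR78, a dynein intermediate chain (2.33 ± 0.37); TUBB4B, the tubulin of axonemes, was 1.11 ± 0.14 higher. Among 8 ciliogenesis regulators 2 were higher in GE: GMNC (3.79 ± 0.53), with 21.1, 111 and 218 CPM as its lowest, median and highest values in GE and 1.20, 7.98 and 21.8 CPM in LE, and RFX3 (1.55 ± 0.20), with 92.0, 151 and 211 CPM against 23.9, 56.7 and 77.3 CPM. Both were higher in S than in LE too, with LE minus S at -3.63 ± 0.41 and -0.91 ± 0.14, as were 4 of the axoneme genes (IQCA1, LRRIQ1, WDR63 and WDR78). The 8 regulators listed in LE did not share this lean as a set. Their median log2 difference was -0.11 for GE minus LE and 0.16 for LE minus S. The GE table held 14 regulators, and those not listed in LE, such as FOXJ1, could not enter these medians. Between GE and S the median log2 difference of 12 regulators was 0.52, with none called.

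Of 15 further IFT motor and particle genes, KIF3A, the heteromeric kinesin subunit (1.45 ± 0.17), TULP3 (1.002 ± 0.19) and DYNC2H1, the retrograde motor (0.58 ± 0.11), were higher in GE. Of 12 BBSome genes 3 (BBS2, BBS9 and BBS10) were higher in GE and MKKS was lower. Of 15 transition zone genes CEP290, RPGRIP1L and TMEM67 were higher in GE and TCTN3 lower (-2.43 ± 0.35). Of 19 basal body genes 4 were higher in GE (CEP41, CEP63, CEP83 and POC1B). Of 15 ciliary signalling genes 1 was higher in GE and 1, PKD1, was lower, and DYNLL2 was higher among 12 cytoplasmic dynein genes. None of these lists had a gene called between GE and S, or between LE and S apart from the 6 named above.

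Between pregnant and control gilts 13 of the 116 genes of these lists were called in LE (11.2%, against 10.0% of all genes). Of these, 4 were higher in pregnant gilts (3.45% of the 116, against 6.33% of all genes). The other 9 were lower, a share above the 3.71% of all genes. In GE 1 gene was called (0.662% against 0.694%) and in S 1 (0.719% against 1.47%). In LE, 1 of 20 motile axoneme genes was lower (ULK4, -1.06 ± 0.22), and among the IFT genes WDR35, of the IFT-A particle, was lower (-1.28 ± 0.19) and KIF3B higher (0.95 ± 0.15). Of 15 ciliary signalling genes 1 was higher in pregnant gilts and 4 were lower: EVC2 (-2.61 ± 0.28), EVC (-2.45 ± 0.46), PKHD1 (-3.01 ± 0.59) and GPR161 (-1.33 ± 0.25). Of the basal body genes CEP41 and CEP128 were lower and STIL was higher, and MKKS rose and INVS fell among the BBSome and transition zone genes. No ciliogenesis regulator was called in LE (0 of 8), GE (0 of 14) or S (0 of 12). In GE only EVC was called (-1.68 ± 0.27, edgeR FDR = 0.138), and in S only CEP128 (-1.42 ± 0.30, edgeR FDR = 0.135).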

How the data were processed

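Per the labels and the study's methods, total RNA of microdissected cells from 8 gilts was made into Ovation SoLo libraries and sequenced as single reads. The authors clipped adapters, removed 5 bases at read starts, mapped with Hisat2 to the NCBI Sscrofa11.1 assembly, removed PCR duplicates by random bases, and deposited raw counts per gene for genes above a CPM cutoff whose level is not given in the sources used here, nor are the counter and its use of strand. The 3 deposited tables (LE, GE, S) hold 22 libraries, and the total counts of a library were taken over its listed genes. The members and all gene lists were chosen with earlier results of these data known.

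Counts were tested with edgeR 4.0.16 (R 4.3.3, quasi-likelihood, TMM): pregnant against control in each table, cell types with the gilt as a fixed block, and the interaction of both, p-values adjusted over all genes of the table by Benjamini-Hochberg. A call was an FDR below 0.01 in LE and between cell types and an unadjusted p below 0.0021 in GE and S, as the study's methods use, and the FDR is given beside it. CPM values are on 1 scale, set by TMM over the 10643 genes shared by the tables. The same animal carries the same gilt number, so the gilt pairs the libraries. Deviations of same-gilt libraries had median correlations of 0.257 for LE and GE, 0.314 for LE and S and 0.468 for GE and S. The lowest same-gilt pair of GE and S was at -0.176. Between gilts the medians were -0.0754, -0.138 and -0.188. Deviations were taken from the mean of each group, which by itself pulls the values between gilts below 0. Cell types were set side by side although each table was filtered separately, so that tests covered only genes listed in both. Scripts were tested on simulated data.

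Members named with values are those called in any test, the 3 largest changes either way in each cell type, the 3 largest differences either way between cell types, the 3 highest levels per kilobase and those listed in GE alone; values of the others by library are in the heat map. Alternatives were RLE size factors, library size alone, at least 10 counts in every library, DESeq2 1.42.0, limma 3.58.1 with a random gilt block, no block, each gilt left out, the 6 gilts with an S library, an FDR threshold of 0.05 (and of 0.01 in GE and S), and, chosen after seeing the marker levels, leaving out gilts 01 and 02. Marker and cilium gene lists were matched by symbol, gene positions and promoters came from the RefSeq annotation of the same build, and no library was left out of the main tests. Results of a few genes of the cilium lists are not reported here. The level of 3 counts covers counting error only, while standard errors and SDs include the variation between gilts.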

Additional observations from a re-analysis of the deposited data

Results flagged for a closer look

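A library stood far from the other 3 of its group in 3 of 124 groups examined (31 members, groups of 4 libraries; gap to the nearest library, divided by the range of the group, above the 95% critical value of Dixon, which chance alone gives in about 1 group in 20). CFAP69 in control LE stood at 15.04 CPM in gilt 02, above the other control gilts at 9.88 to 10.6 CPM, and its pregnancy call held without that gilt. IFT46 in control LE stood at 36.5 CPM in gilt 02, below the others at 45.2 to 45.5 CPM. CFAP47 in pregnant LE stood at 16.2 CPM in gilt 14, above the others at 0 to 2.47 CPM, and the same library had the highest summed level of dynein heavy chains in LE, at 253 CPM.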

How the results depend on the processing

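The pregnancy count in LE (1 of 46) was 1 to 2 with single gilts left out, 3 with DESeq2, 3 at an FDR below 0.05 and 0 with only the 6 gilts that have an S library; the last fit has fewer samples. It stayed at 0 of 82 in GE under the alternatives run (2 of 82 lay below an unadjusted p of 0.05), and in S it was 0 to 1 with single gilts left out, the 1 being SPAG1 without gilt 05. The GE against LE count (28 of 46) was 9 when at least 10 counts were asked of every library, which left 22 members to test, 21 to 31 with single gilts left out, and 30 and 32 without the gilt block and with a random gilt block. The LE against S count (13 of 45) was 5 with at least 10 counts, 21 with DESeq2, 21 at an FDR below 0.05, 3 to 13 with single gilts left out, 0 without gilts 01 and 02, 0 without the gilt block and 10 with a random gilt block; the cause was not tested. Leaving the gilt block out moved no other count by over 1.5 times, and GE against S and both interactions gave 0 members under the alternatives run (12 of 62, 5 of 46 and 7 of 45 lay below an unadjusted p of 0.05). CFAP43 in GE, with a log2 fold change of -0.45, ranged from -0.80 without gilt 02 to 0.21 without gilt 13, neither called. Of 797 values of single members under an alternative, 701 kept direction and side of the threshold, 93 lost the call, 2 gained one and 1 changed sign. Depth limits the low members: 3 counts stood for up to 3.61 CPM in the shallowest LE library, against the 7.07 CPM, by library totals, that each listed gene reached in 3 LE libraries.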
